A study of Mus musculus with 27 samples.

Results

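Described here are the small nuclear RNAs (snRNAs) of a mouse small RNA table, the RNA cores of the spliceosome. The set is the deposited snRNA class with the exception of Rnu7, and it holds 26 of 1013 entries in all. The class held 27 entries, and the other excluded names (Rnu3a, Rnu73b and those starting Scarna) were listed in another class. RNA shorter than 200 nt was sequenced from 3 compartments (chromatin, soluble nucleoplasm, cytoplasm) of 3 kinds of mouse cells, with 3 libraries in each of the 9 groups. The stem cells, mESC, were of the E14 line and received LIF. The neural progenitors, mNPC, were also a line and received EGF and FGF, and the neurons, mCtx, were primary cortical cells cultured for 5 days. The labels name no genotype or test treatment for any group, and give neither the strain nor the animals behind mCtx. Replicates are called biological without mention of separate cultures, and the p values given cover only library-to-library spread, which may be technical.

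In the spliceosome that removes most introns, U1 recognises the start of the intron and U2 the branch point. U4 holds U6 inactive until assembly is complete, and U5 keeps the exon ends together. A rarer class of introns is removed by the minor spliceosome, in which U11 and U12 take the places of U1 and U2, U4atac and U6atac those of U4 and U6, and U5 is shared. snRNAs are made in the nucleus, pass through the cytoplasm while Sm proteins are loaded, and return to the nucleus, where splicing takes place largely on chromatin. Mammalian genomes hold many copies and variants of most snRNA genes.

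By name or by alignment to a named copy (at least 80% identity), 13 entries were U2, 7 were U5, 2 were U12 and 1 was U11. The other 3 entries had no named relative in the reference. Gm24265 and Gm24407 lie 141 bases long on chromosome 5 and have, from general knowledge of the sequence rather than from a file, the sequence of U4, and Gm22710 has that of U4atac. They are called here by gene name. No entry was U1 or U6. Coordinates of 26 of 26 entries matched the GENCODE vM21 annotation of GRCm38, from which the sequences below were read as DNA letters, 5′ to 3′.

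The 6 U5 copies named next were each listed in mESC and in mNPC, in fractions and at levels that differed. In mCtx only Gm23143 and Gm25099 were listed. Of 116 positions in the 6 copies named next 15 differed, and the first 70 bases were the same in each. Reads from that 5′ part cannot be given to one copy. Gm25099 (chr4:117189942-117190057), Gm23143 (chr4:117202528-117202643) and Gm23287 (chr4:117210844-117210959) form a cluster on the plus strand, outside other annotated genes. Rnu5g (chr9:65201726-65201841) and Gm25313 (chr9:65196572-65196687) lie on the minus strand inside an intron of Parp16, which runs on the other strand, and Gm24871 (chr1:171503048-171503163, minus strand) overlaps an exon of the antisense gene B930036N10Rik. The seventh U5 entry, Gm22265 (chromosome 1, 192745571 to 192745686), was 91.5% identical to Rnu5g and was above 0 in 1 library only, mNPC chromatin replicate 2, at 89.98 RPM.

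The U2 copies are shown because most of them carried one another's values. Among 13 copies of 191 bases the identity of a pair ran from 92.1% to 100%, and Rnu2-10, Gm23849, Gm24950 and Gm23971 had the same sequence, as had Gm23444 and Gm23472. In the sequences, capitals mark the 11 positions that differed among the 5 copies below, of which the first 66 bases were the same. Gm26316 (chr11:101604850-101605040, plus strand) is the outermost of a cluster of 5 copies that ends with Rnu2-10 (chr11:101658238-101658428, plus strand). Gm25360 (chr1:72226240-72226430, plus strand) heads a second cluster of 4, and Gm22973 (chr12:59040335-59040525, plus strand) and Gm23444 (chr11:83271498-83271688, plus strand) stand alone. None of these 5 overlapped another annotated gene.
Gm22973: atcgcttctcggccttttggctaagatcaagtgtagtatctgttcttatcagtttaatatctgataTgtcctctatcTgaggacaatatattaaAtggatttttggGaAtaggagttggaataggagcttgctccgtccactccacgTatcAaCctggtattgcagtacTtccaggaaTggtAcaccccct
Gm26316: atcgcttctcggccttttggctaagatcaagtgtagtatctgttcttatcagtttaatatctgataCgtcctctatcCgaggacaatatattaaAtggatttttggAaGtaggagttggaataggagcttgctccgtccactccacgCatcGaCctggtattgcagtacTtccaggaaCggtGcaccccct
Gm25360: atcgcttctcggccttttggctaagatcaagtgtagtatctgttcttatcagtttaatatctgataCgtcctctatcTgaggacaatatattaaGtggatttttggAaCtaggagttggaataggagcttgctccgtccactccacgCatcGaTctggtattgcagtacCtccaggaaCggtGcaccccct
Rnu2-10: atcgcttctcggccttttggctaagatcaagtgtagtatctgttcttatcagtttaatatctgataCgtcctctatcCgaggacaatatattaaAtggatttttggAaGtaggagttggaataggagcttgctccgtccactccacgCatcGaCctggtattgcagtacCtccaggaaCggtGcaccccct
Gm23444: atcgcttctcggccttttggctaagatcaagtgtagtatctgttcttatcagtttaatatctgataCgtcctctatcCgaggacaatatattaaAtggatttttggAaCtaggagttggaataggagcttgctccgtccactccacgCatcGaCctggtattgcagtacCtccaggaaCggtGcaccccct

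The remaining sequences are those of the minor spliceosome and of the chromosome 5 pair, shown because the near-identical copies of a pair can share reads. Rnu12 (chr15:83149644-83149794, plus strand) and Gm24525 (chr5:7177706-7177856, minus strand, in an intron of Zfp804b) differed at 6 of 151 positions and shared a stretch of 81 bases. Gm24265 (chr5:115489459-115489599, plus strand) and Gm24407 (chr5:115490254-115490394, plus strand) differed at 2 of 141. Capitals again mark the differing positions within each pair.
Rnu12: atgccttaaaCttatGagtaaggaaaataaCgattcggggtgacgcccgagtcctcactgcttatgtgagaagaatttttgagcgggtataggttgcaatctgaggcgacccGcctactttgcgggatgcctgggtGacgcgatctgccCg
Gm24525: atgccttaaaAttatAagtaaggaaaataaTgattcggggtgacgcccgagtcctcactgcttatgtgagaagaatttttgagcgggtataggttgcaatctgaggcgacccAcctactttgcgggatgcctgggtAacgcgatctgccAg
Gm24265: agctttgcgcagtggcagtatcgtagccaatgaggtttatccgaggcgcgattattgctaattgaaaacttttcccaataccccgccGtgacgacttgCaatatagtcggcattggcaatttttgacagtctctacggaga
Gm24407: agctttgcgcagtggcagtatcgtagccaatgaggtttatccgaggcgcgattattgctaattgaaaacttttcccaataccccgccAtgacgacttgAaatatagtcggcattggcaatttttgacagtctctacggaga
Rnu11 (chr4:132270080-132270213, minus strand) overlaps an exon of the lincRNA Gm28872 on the other strand, and Gm22710 (chr1:118459141-118459265, minus strand) lies in an intron of Clasp1 and overlaps an exon of 2900060B14Rik.
Rnu11: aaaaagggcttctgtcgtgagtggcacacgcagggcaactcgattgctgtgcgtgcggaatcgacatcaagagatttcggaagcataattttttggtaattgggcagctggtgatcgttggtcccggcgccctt
Gm22710: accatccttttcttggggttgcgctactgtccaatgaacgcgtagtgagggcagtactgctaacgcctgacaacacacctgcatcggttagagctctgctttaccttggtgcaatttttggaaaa

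Levels are given as RPM, read numbers that the authors scaled to the size of each library. The listed entries made up 73.9% to 97.4% of a library, in 288 to 615 entries, and everything below a lowest value of 5.16 to 59.07 RPM, which differed between libraries, was listed at 0. A value of 0 therefore does not show absence. RPM gives a share of reads and not an amount per cell, and fewer cells of a type and less RNA per cell cannot be told apart. The libraries were 120 to 160 bp long with adapters of unstated length, so levels may be those of pieces of an snRNA. The miRNA markers of each cell type followed the labels: 8 of 10 stem cell markers matched entries, which summed to between 19861 and 93870 RPM in mESC libraries and to 0 in all mNPC and mCtx libraries. miR-9 reached 34835 to 139595 RPM in mNPC and mCtx and at most 751.7 in mESC. The neuronal markers reached 16510 to 49111 RPM in mCtx, against at most 1413 in mNPC and 976.7 in mESC. Markers of other cells in mCtx were low for oligodendrocytes (50.21 to 101.4 RPM), microglia and blood (0 to 44.5) and endothelium (35.42 to 152.8). Those for mesenchyme were higher (2156 to 4006). Of 3 microglia and blood markers only 1 matched entries. In mESC the highest sums of these 4 lists, in the same order, were 0, 1774, 1622 and 6164 RPM. In mNPC they were 288.0, 0, 138.4 and 231.5 RPM. Named Snord, Snora and Scarna entries, which are nuclear RNAs, summed to at least 227351 RPM in mESC chromatin and at most 3541 in mESC cytoplasm.

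Summed over the 26 entries, snRNA reads took the largest share of a library in chromatin, a smaller one in nucleoplasm and the smallest in cytoplasm, in each cell type. They made up 1.21%, 1.87% and 1.87% of listed reads in mESC chromatin, 0.718%, 0.793% and 0.993% in the nucleoplasm and 0.223%, 0.138% and 0.213% in the cytoplasm. In mNPC the 3 libraries had 0.751%, 1.35% and 1.24% in chromatin, 0.212%, 0.187% and 0.142% in the nucleoplasm and 0.00894%, 0.0119% and 0 in the cytoplasm. In mCtx they had 0.6%, 0.521% and 0.576% in chromatin, 0.144%, 0.149% and 0.112% in the nucleoplasm and 0.00816%, 0.00153% and 0.00883% in the cytoplasm. No 2 fractions of a cell type overlapped in this sum. mESC cytoplasm stood above the cytoplasm of the other cells, at 1126 to 1947 RPM against 0 to 113 in mNPC and 14.9 to 86.07 in mCtx. This was not particular to snRNAs. The named Snord, Snora and Scarna entries summed to 1882 to 3541 RPM in mESC cytoplasm, 182.8 to 486.7 in mNPC and 308.4 to 415.5 in mCtx. Entries that carry the same reads enter this sum more than once if reads were counted at each copy, which the sources used here do not say.

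**Figure D1:**
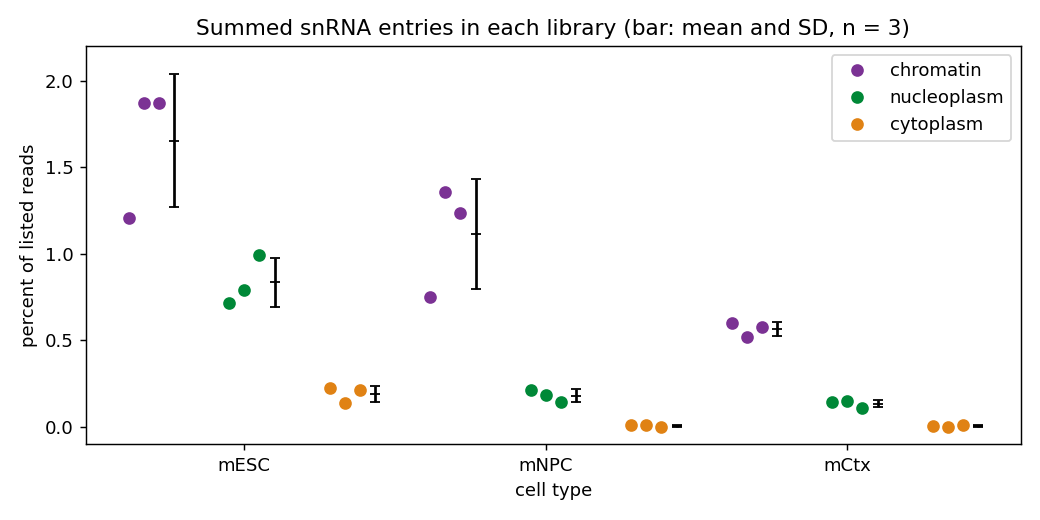
Percent of listed reads in the 26 snRNA entries (vertical axis) in each library (points) by cell type and fraction, with mean and SD of 3 libraries. In each cell type chromatin lies above nucleoplasm and nucleoplasm above cytoplasm, with mESC chromatin reaching 1.87%.

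Few entries were listed throughout. Of 234 combinations of an entry and a group, 130 were at 0 in all 3 libraries, 47 were above 0 in all 3, and 57 were mixed. In 29 of the mixed groups, spread over 18 entries, a library at 0 stood beside one at least 3 times the highest of the lowest listed values. The table holds no read alignments, and movement of reads between near-identical copies cannot be told apart from a change of level in such groups. The heatmap shows these gaps as pale cells beside dark ones.

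**Figure D2:**
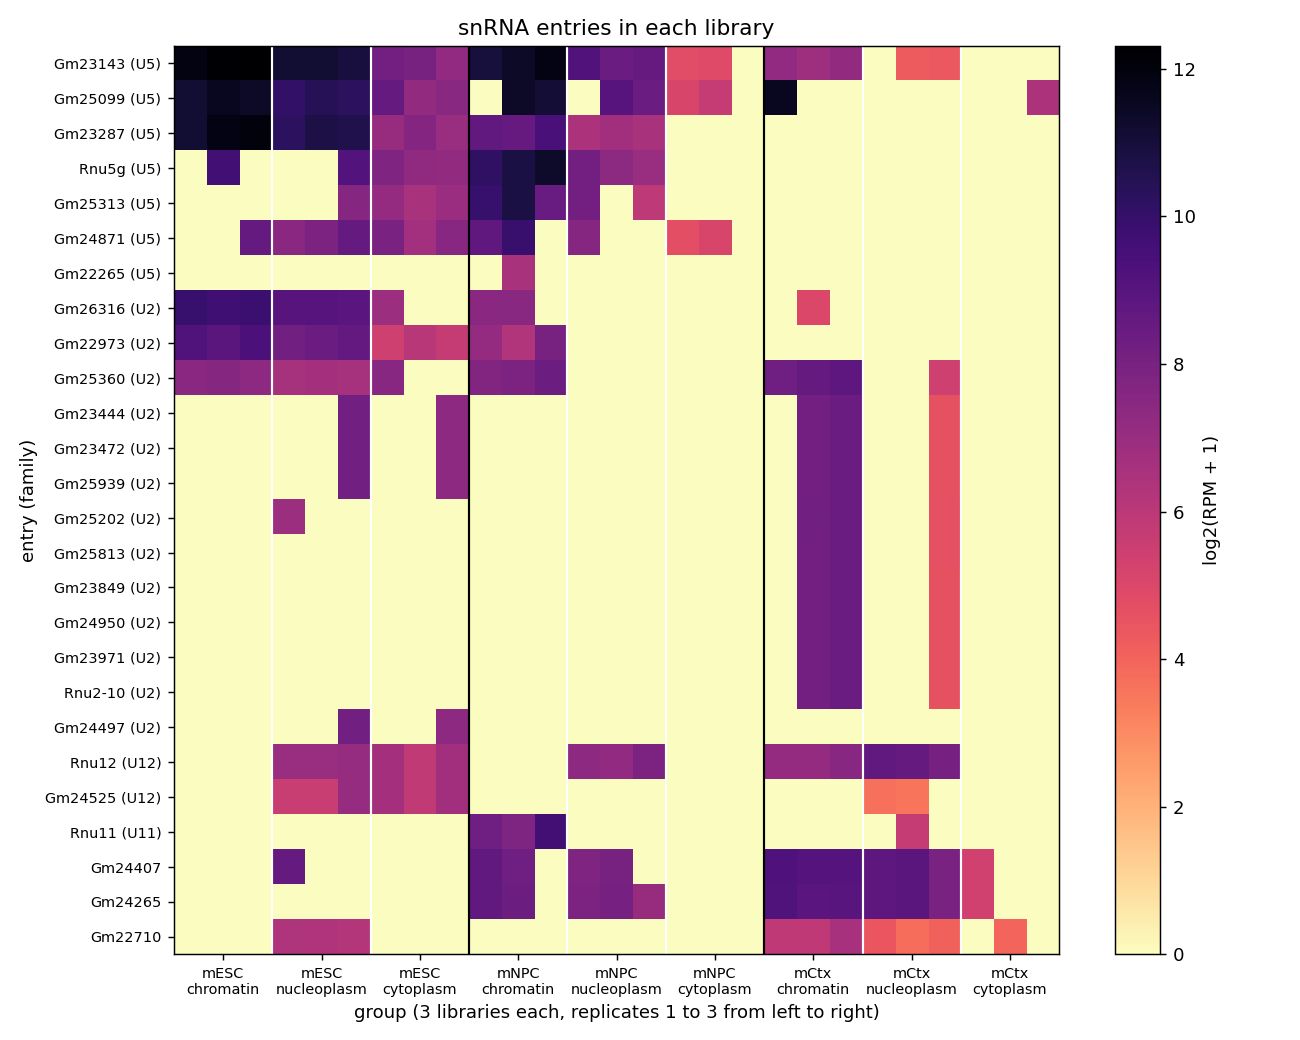
log2(RPM + 1) of the 26 entries (vertical axis, with family) in 27 libraries (horizontal axis, 3 per group). The U5 entries Gm23143, Gm25099 and Gm23287 are dark in mESC chromatin and nucleoplasm, and Gm23143, Rnu5g and Gm25313 in mNPC chromatin. Gm25099 is also dark in mNPC chromatin replicates 2 and 3. The block of U2 copies with equal values is dark in mCtx chromatin replicates 2 and 3, and Gm24265 and Gm24407 are dark in mCtx chromatin and nucleoplasm.

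U5 was the most abundant family in mESC and mNPC. Gm23143 had 3808, 4843 and 5082 RPM in mESC chromatin, with 2222, 2276 and 1888 in the nucleoplasm and 286.5, 254.7 and 151.1 in the cytoplasm. Gm23287 had 2225, 3748 and 4034 RPM in mESC chromatin, with 1248, 1692 and 1565 in the nucleoplasm and 132.2, 195.3 and 125.9 in the cytoplasm. The fractions did not overlap for either copy. Single entries were tested with limma on log2(RPM + 1) over the 851 entries that reached 1 RPM in 3 or more libraries, and an entry was called at a Benjamini-Hochberg adjusted p under 0.05. Of the 26 snRNA entries 24 passed this filter, and Gm22265 and Gm24497 did not. Gm23143 was higher in mESC chromatin than in cytoplasm by 4.34 on the log2 scale (SE 1.01, limma adjusted p = 0.00105) and Gm23287 by 4.44 (SE 0.27, limma adjusted p = 1.3e-11). The ratios of the mean RPM were 19.8 and 22.1. Gm25099 also did not overlap between these fractions, at 2240, 3034 and 2614 RPM in chromatin and 385.7, 144.3 and 176.3 in cytoplasm, but it was not called (difference 3.60, SE 3.07, limma adjusted p = 0.374). With values under 59.07 RPM raised to that floor in all libraries, called the common floor below, Gm25099 passed (limma adjusted p = 0.0175).

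Other U5 copies were listed in mESC cytoplasm and mostly not in chromatin. Gm25313 reached 140.5, 90.56 and 124.4 RPM in mESC cytoplasm and 0, 0 and 189.8 in nucleoplasm, with all chromatin libraries at 0, and was called lower in chromatin (limma adjusted p = 0.00125). This call was lost with the common floor (limma adjusted p = 0.125). In the mESC cytoplasm libraries Rnu5g had 219.9, 157.1 and 144.8 RPM. Its values were 0, 792.1 and 0 in chromatin and 0, 0 and 545.7 in nucleoplasm, overlapping those of cytoplasm, and it was not called (limma adjusted p = 0.0901 for chromatin against cytoplasm). Gm24871 was at 238.3, 104 and 184.2 RPM in mESC cytoplasm against 0, 0 and 382.2 in chromatin, which overlapped and did not pass (limma adjusted p = 0.122). In mESC nucleoplasm Gm24871 was listed in all libraries, at 172, 231.5 and 384.3 RPM, which overlapped cytoplasm and was not called against it.

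In mNPC chromatin the chromosome 9 copies were listed in every library. Rnu5g had 1168, 1778 and 2561 RPM in mNPC chromatin, 284.3, 166.6 and 128.2 in nucleoplasm, and 0 in all cytoplasm libraries. Gm25313 had 960.6, 1778 and 354.4 RPM in mNPC chromatin, 284.3, 0 and 60.35 in the nucleoplasm and 0 in the cytoplasm. In mNPC chromatin replicate 2 and nucleoplasm replicate 1 both entries had the same value. Rnu5g and Gm25313 were higher in mNPC than in mESC chromatin (limma adjusted p of 0.00412 and 3.98e-05), where Gm25313 was at 0 and Rnu5g above 0 in 1 library. Both were also higher in mNPC chromatin than in mNPC cytoplasm (limma adjusted p of 0.000208 and 6.14e-05). Gm25099 of chromosome 4 had 0, 2618 and 2138 RPM in mNPC chromatin and 0, 510.1 and 330.4 in nucleoplasm. In mNPC cytoplasm Gm25099 had 33.74, 50.83 and 0 RPM, and it was not called in any pairwise comparison.

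Gm23143 had 1991, 2644 and 3689 RPM in mNPC chromatin, 572.1, 329.8 and 375.2 in the nucleoplasm and 26.99, 28.24 and 0 in the cytoplasm. Between mNPC and mESC chromatin it differed by -0.76 on the log2 scale and did not pass although the groups did not overlap (SE 1.01, limma adjusted p = 0.702). With the common floor the same difference passed (limma adjusted p = 0.00917). Gm23287 had 402.7, 376.3 and 667.5 RPM in mNPC chromatin and 84.6, 105.4 and 90.52 in the nucleoplasm and was at 0 in the cytoplasm. The difference between mNPC and mESC was -2.79 in chromatin (SE 0.27, limma adjusted p = 1.94e-08) and -3.99 in nucleoplasm (SE 0.27, limma adjusted p = 4.82e-11), and with each library centred to one median it turned to 1.53 and 1.69 and did not pass (limma adjusted p of 0.386 and 0.348). The groups did not overlap in either fraction.

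The balance of these neighbours was compared within libraries, which is free of the scaling of a library. It is not free of how reads were shared among copies, which the sources used here do not give. The ratio of Gm23287 to Gm23143 was 0.462 to 0.833 (median 0.767) over the 9 mESC libraries and 0.142 to 0.32 (median 0.192) over the 6 mNPC libraries of chromatin and nucleoplasm. The mESC and mNPC ranges did not overlap. The ratio was chosen after the values were seen and is given as a description without a test. The ratio of Gm25099 to Gm23143 did overlap, at 0.49 to 1.35 in mESC and 0.58 to 1.8 in the 6 mNPC libraries that listed both.

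**Figure D3:**
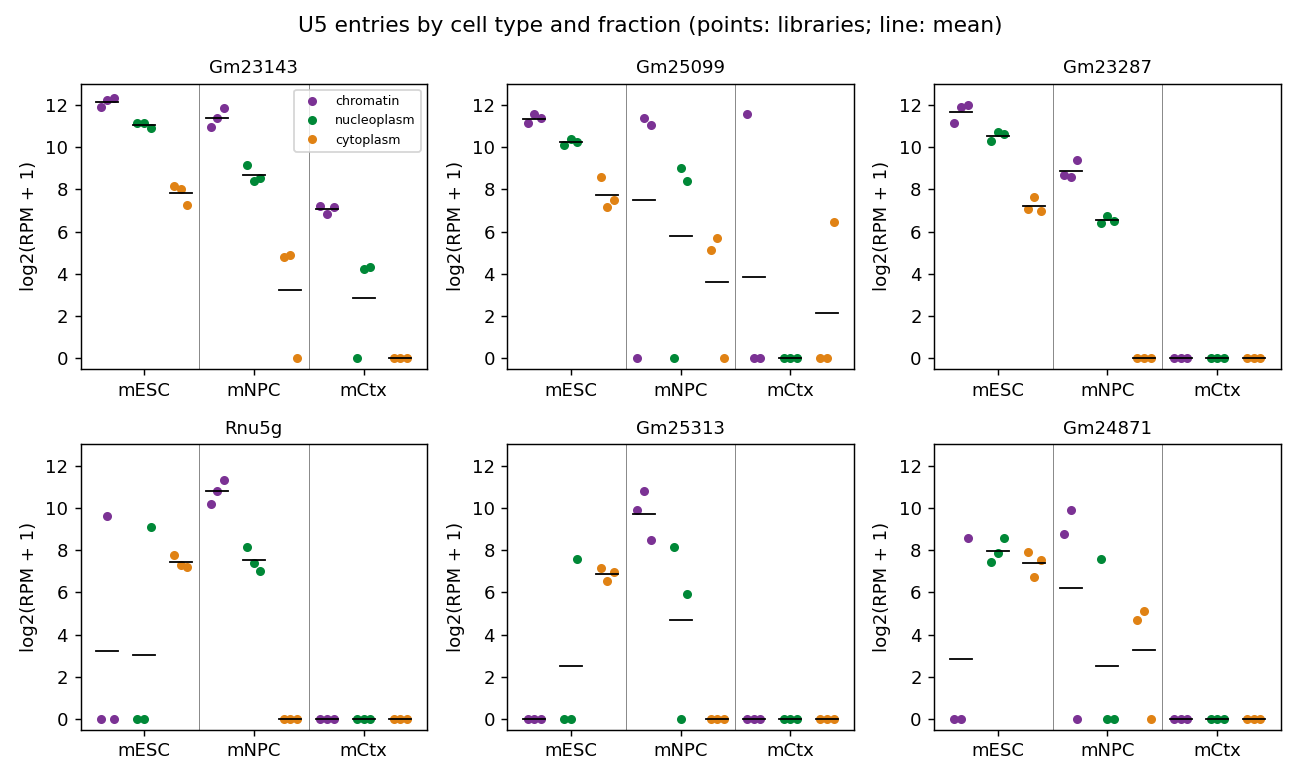
log2(RPM + 1) (vertical axis) of 6 U5 copies by cell type and fraction, with 3 libraries per group as points and their mean as a line. Gm23143, Gm25099 and Gm23287 are high in mESC chromatin. Gm23143, Rnu5g and Gm25313 are high in mNPC chromatin, as is Gm25099 in replicates 2 and 3. In mCtx points above 10 on this scale occur only for Gm25099, in chromatin replicate 1.

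**Figure D4:**
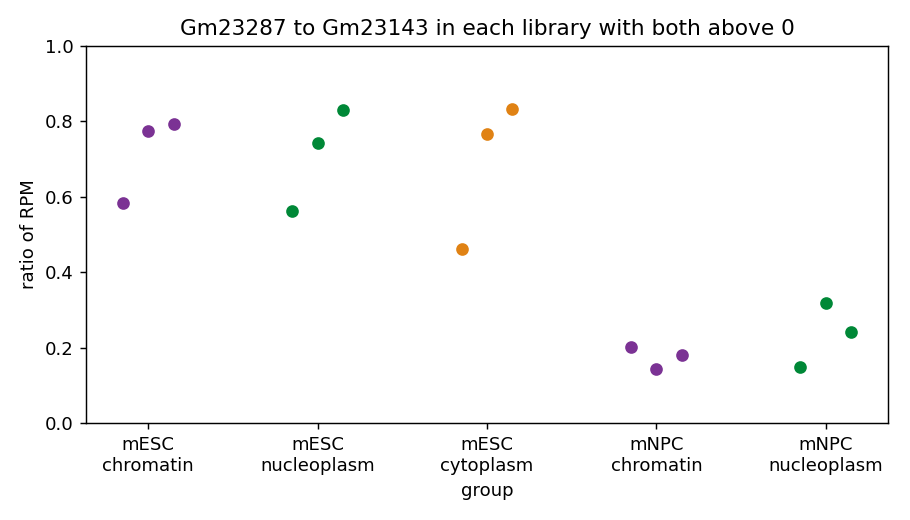
Ratio of Gm23287 to Gm23143 in RPM (vertical axis) in each library that listed both, by group. The mESC libraries lie between 0.462 and 0.833 and the mNPC libraries between 0.142 and 0.32.

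In mCtx U5 was low with a single exception. Gm23143 had 147.6, 113.7 and 143.1 RPM in mCtx chromatin, 0, 17.81 and 19.1 in the nucleoplasm and 0 in the cytoplasm. Set against mNPC chromatin, Gm23143 differed by -4.32 on the log2 scale and was called lower (SE 1.01, limma adjusted p = 0.00248). Gm23287, Rnu5g, Gm25313 and Gm24871 were at 0 in all 9 mCtx libraries. The first 3 of these were called lower in mCtx than in mNPC chromatin (limma adjusted p of 7.13e-17, 0.000284 and 7.96e-05), and Gm24871, with mNPC values of 429.7, 957.7 and 0, was not (limma adjusted p = 0.0584). Gm25099 had 2984, 0 and 0 RPM in mCtx chromatin, so the summed U5 entries were 3132, 113.7 and 143.1 RPM in the 3 libraries. The 2 libraries with little U5 were the ones that listed the block of U2 copies described next.

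Among U2 copies, 3 were distinct in level. Gm26316 had 986.8, 837.5 and 904.6 RPM in mESC chromatin, 516.3, 523.3 and 480.6 in the nucleoplasm and 119.6, 0 and 0 in the cytoplasm. It was higher in mESC chromatin and nucleoplasm than in cytoplasm (limma adjusted p of 0.00094 and 0.00795), the nucleoplasm call being lost at 0.0573 without mESC cytoplasm replicate 2. Gm22973 had 581.4, 463.1 and 663 RPM in mESC chromatin, 294.2, 335.1 and 394.8 in the nucleoplasm and 41.33, 65.79 and 50.37 in the cytoplasm. Its differences from cytoplasm were 3.42 in chromatin (SE 0.32, limma adjusted p = 1.68e-08) and 2.69 in nucleoplasm (limma adjusted p = 1.32e-06). In mNPC chromatin Gm22973 had 141.3, 75.25 and 259.9 RPM, and it was at 0 in all mCtx libraries. It was lower in mNPC than in mESC chromatin by a difference of -2.0 (SE 0.32, limma adjusted p = 2.3e-05) and lower in mCtx than in mNPC (limma adjusted p = 6.67e-14). With centred libraries, as described below, the Gm22973 differences turned to -0.82 for chromatin and -1.21 for nucleoplasm against cytoplasm of mESC and to 2.33 for mNPC against mESC chromatin, and did not pass (limma adjusted p of 0.635, 0.497 and 0.186).

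Gm25360 went the other way in rank. It had 172.3, 187.5 and 157.8 RPM in mESC chromatin, 201.7, 235.6 and 323.1 in mNPC chromatin, and 301.8, 387.4 and 451.2 in mCtx chromatin. mESC and mNPC did not overlap and mNPC and mCtx did, and neither pair passed (differences of 0.53 and 0.59, SE 1.42, limma adjusted p of 1 for both). Gm25360 was higher in chromatin than in cytoplasm in mESC, mNPC and mCtx (limma adjusted p of 0.0057, 0.000116 and 4.3e-05). In mNPC and mCtx cytoplasm it was at 0, and in mESC cytoplasm it had 184.2, 0 and 0, which overlapped chromatin. It had 96.33, 99.3 and 96.79 RPM in mESC nucleoplasm and was at 0 in mNPC nucleoplasm (limma adjusted p = 0.000536).

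Rnu2-10 and 7 other copies (Gm23849, Gm24950, Gm23971, Gm25813, Gm23444, Gm23472 and Gm25939) had one common value in mCtx chromatin, 0 in replicate 1, 286.8 in replicate 2 and between 332.6 and 333.2 in replicate 3. Their only other mCtx value was between 23.53 and 23.59 RPM, in nucleoplasm replicate 3. Gm23444, Gm23472 and Gm25939 also had 293.6 to 294.3 RPM in mESC nucleoplasm replicate 3 and 160.9 to 161.2 in mESC cytoplasm replicate 3, as had Gm24497. These 9 entries agreed within 1% in every library where both of a pair were above 0. Gm25202 of chromosome X (14315401 to 14315591), which was 95.8% identical to Rnu2-10, came close, with 0, 292.2 and 338.2 RPM in mCtx chromatin. No 20-base stretch of Rnu2-10, its 3 exact copies, Gm23444 or Gm23472 was unique among the 26 entries. These entries are thus described as a block and not as separate measurements. In mCtx chromatin the block overlapped with cytoplasm, where it was at 0, through replicate 1.

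The chromosome 5 pair, Gm24265 and Gm24407, was listed in mNPC and mCtx and almost not in mESC. Gm24265 had 592.4, 486.4 and 508.4 RPM in mCtx chromatin, 453.4, 461.2 and 249.7 in the nucleoplasm and 39.75, 0 and 0 in the cytoplasm. mNPC chromatin had 409.8, 322.2 and 0 RPM of it and mNPC nucleoplasm 234, 264.1 and 129.7, with cytoplasm at 0, and it was at 0 in all 9 mESC libraries. Gm24265 was called higher in mNPC than in mESC in nucleoplasm and in chromatin (limma adjusted p of 0.000295 and 0.00461), the chromatin groups overlapping at 0. Between mCtx and mNPC it did not pass in chromatin or nucleoplasm (limma adjusted p of 0.124 and 0.909). The chromatin groups did not overlap, and with the common floor their difference passed (limma adjusted p = 0.0183). Gm24407 followed, at 604.2, 529.8 and 526 RPM in mCtx chromatin and 453.4, 467.4 and 251.8 in nucleoplasm, and had 383.6 RPM in mESC nucleoplasm replicate 1 as its only mESC value. Gm24407 and Gm24265 agreed within 1% in 4 of the 11 libraries where both were above 0. Their calls are therefore not taken as separate measurements. Both were higher in mCtx chromatin and nucleoplasm than in cytoplasm (limma adjusted p of 0.000642 and 0.00252 for Gm24265, and 0.015 and 0.0387 for Gm24407). The Gm24407 calls were lost without mCtx cytoplasm replicate 3 (limma adjusted p = 0.0643) and mCtx cytoplasm replicate 2 (limma adjusted p = 0.128). Chromatin and nucleoplasm of mCtx did not overlap, at ratios of the means of 1.36 and 1.42, but did not pass (differences of 0.49 with SE 1.55 and 0.55 with SE 2.34, limma adjusted p of 1 for both).

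Rnu12, the U12 RNA of the minor spliceosome, differed from the other families in its place. It had 158.2, 149.6 and 229.3 RPM in mNPC nucleoplasm and was at 0 in mNPC chromatin and cytoplasm. In mCtx it had 413.8, 388.3 and 267.3 RPM in nucleoplasm, 138.6, 139.5 and 180.8 in chromatin and 0 in cytoplasm. In mESC it had 128.4, 126.2 and 134.8 RPM in nucleoplasm, 99.18, 57.3 and 105.5 in cytoplasm and 0 in chromatin. Rnu12 was lower in chromatin than in nucleoplasm in mESC, mNPC and mCtx (limma adjusted p of 3.89e-15, 1.99e-15 and 0.00119), and in mCtx, where all libraries were above 0, the difference was -1.20 (SE 0.26). No 2 of these paired groups overlapped. The direction and the calls held with the common floor of 59.07 RPM. With each library centred to one median, no entry was called lower in mCtx chromatin than in nucleoplasm, so the mCtx call was lost. Rnu12 rose from mNPC to mCtx nucleoplasm by 0.99 (SE 0.26, limma adjusted p = 0.00472), and this direction turned when each library was centred to one median, at -3.50 (limma adjusted p = 0.0456). In mCtx chromatin it was listed where mNPC chromatin was at 0 (limma adjusted p = 1.37e-15), and the mNPC libraries' lowest listed values of 32.48 to 59.07 RPM lay below the mCtx levels.

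Gm24525 carried the same value as Rnu12 in mESC nucleoplasm replicate 3 and in all 3 mESC cytoplasm libraries. It had 47.59 and 47.48 RPM in the other mESC nucleoplasm libraries, 11.65, 10.45 and 0 in mCtx nucleoplasm, and 0 elsewhere. Its calls in mESC cytoplasm and mCtx nucleoplasm are thus calls of shared or very low values. Calls of Rnu12 that use mESC cytoplasm rest on the same shared values.

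Rnu11, the U11 RNA that pairs with the start of minor introns, was listed in mNPC chromatin at 305.3, 225.8 and 770.8 RPM and otherwise only once, at 50.33 in mCtx nucleoplasm replicate 2. It was higher in mNPC chromatin than in mESC and mCtx chromatin and than in mNPC nucleoplasm and cytoplasm (limma adjusted p of 8.75e-08, 1.75e-07, 2.17e-07 and 1.65e-07), each at 0 in all libraries. Gm22710 was listed in mESC nucleoplasm at 81.58, 78.68 and 72.79 RPM, in mCtx chromatin at 59.04, 58.22 and 92.9, in mCtx nucleoplasm at 21.05, 12.39 and 15.48, and once in mCtx cytoplasm at 14.9. It was at 0 in mESC chromatin, where the lowest listed values were 45.18 to 54.8 RPM, and in all mNPC libraries. Gm22710 was higher in mCtx chromatin than in nucleoplasm by 2.03 (SE 0.65, limma adjusted p = 0.0203), lost at 0.142 with the common floor and at 0.0793 without mCtx chromatin replicate 3, and lower in mESC chromatin than in nucleoplasm (limma adjusted p = 1.01e-07).

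**Figure D5:**
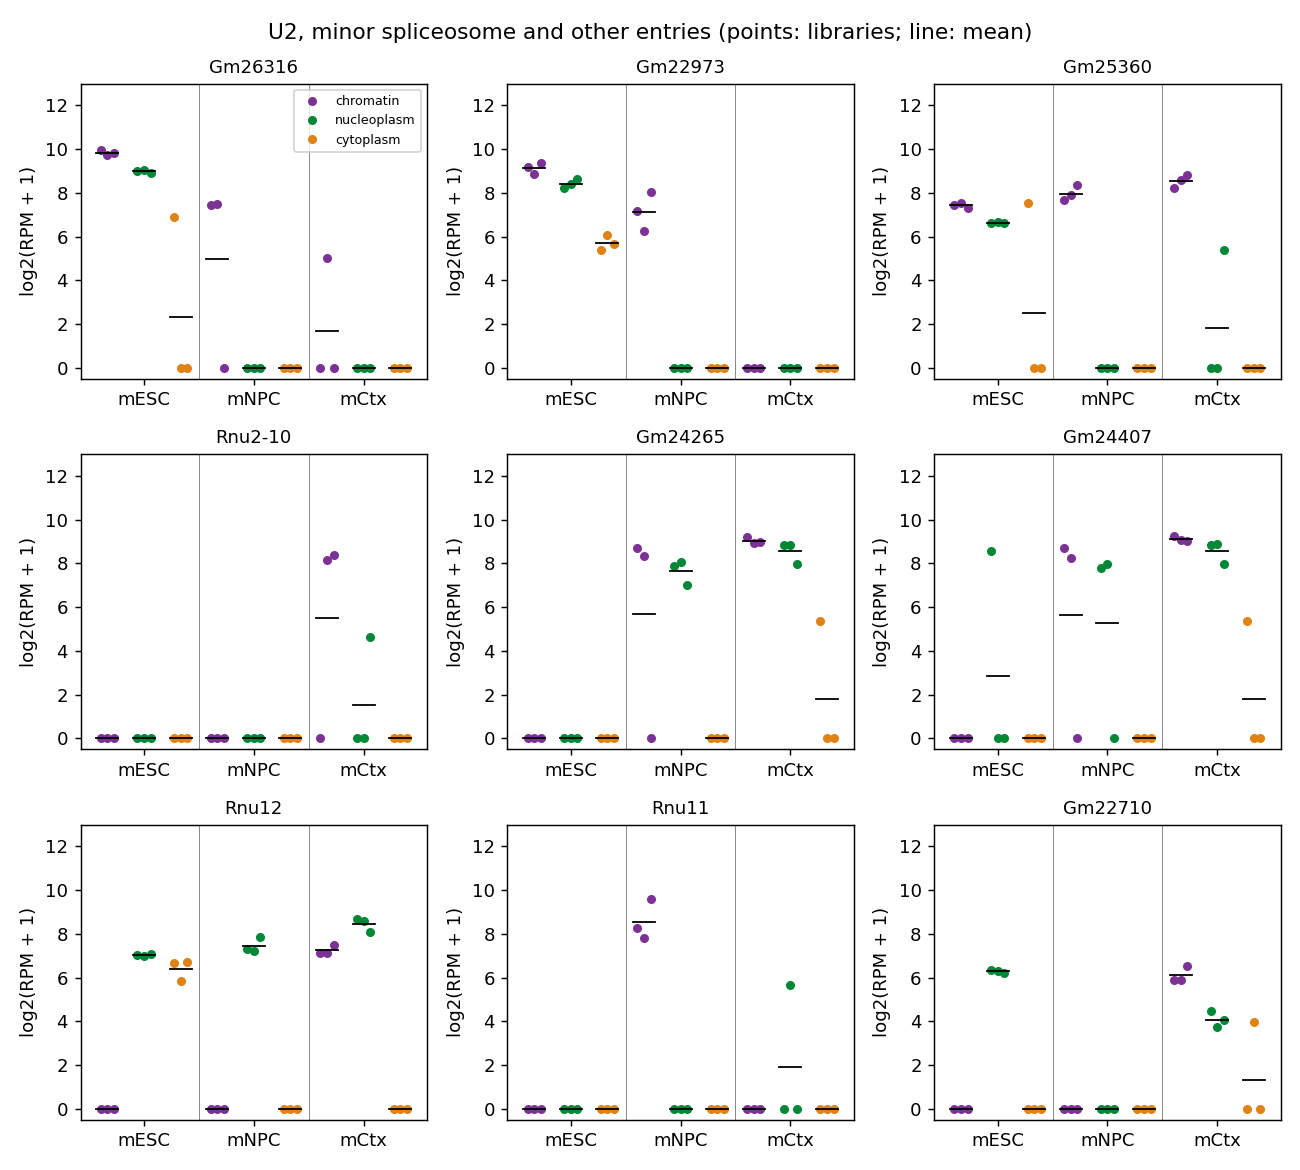
log2(RPM + 1) (vertical axis) of U2, minor spliceosome and other entries by cell type and fraction, with 3 libraries per group as points and their mean as a line. Gm22973 is highest in mESC chromatin on this uncentred scale, Gm24265 and Gm24407 are high in mCtx chromatin and nucleoplasm, Rnu12 is highest in mCtx nucleoplasm, and Rnu11 is high only in mNPC chromatin.

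Counts over the family show how far these single entries reach. Between chromatin and cytoplasm of mESC, 5 of 24 tested entries were higher and 3 lower, against 24.9% and 29.5% of all tested entries. In mNPC 9 were higher and 0 lower (19.3% and 19.5% of all), and in mCtx 15 were higher and 0 lower (20.2% and 23.9%). The mCtx count rests on the block of U2 copies: it became 7 with entries of equal values counted once, and 6 without mCtx chromatin replicate 2 or 3. Of the 15 entries 9 overlapped between the groups. These were U2 copies at 0 in mCtx chromatin replicate 1. The share of overlapping entries among all called ones is not given. The median log2 difference of the tested snRNA entries was 0 in mESC, 1.47 in mNPC and 5.52 in mCtx, and that of all tested entries was 0 in each. Rnu7, Rnu73b and Scarna9, nuclear RNAs outside the spliceosome, were higher in chromatin than in cytoplasm in all 3 cell types by the same test, and Rnu3a in mNPC and mCtx. In mESC Rnu3a was at 0 in all chromatin and cytoplasm libraries.

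Nucleoplasm exceeded cytoplasm in 6 entries of mESC, 5 of mNPC and 6 of mCtx, and 0 were lower. The median differences were 0.29, 0 and 1.54, against 0 over all tested entries. Among all entries 14.0%, 9.40% and 13.5% were higher and 5.17%, 6.11% and 11.8% lower. The mESC count became 3 without mESC cytoplasm replicate 2 or 3, and the mCtx count 3 without mCtx nucleoplasm replicate 2. Gm22710, Gm23143 and Gm24525 of mCtx, at 0 to 21.05 RPM, were no longer called with the common floor. Chromatin against nucleoplasm had 1 higher and 3 lower in mESC (19.9% and 30.9% of all entries; 5 and 2 with the common floor, 3 and 3 with 10 RPM added), 6 and 1 in mNPC (16.9% and 10.9%), and 8 and 2 in mCtx (14.9% and 17.2%). The entries lower in chromatin included Rnu12 in each cell type. The mCtx count of 10 fell to between 4 and 6 without any of mCtx chromatin replicates 2 or 3 or mCtx nucleoplasm replicates 1, 2 or 3, and to 5 with equal-valued entries counted once.

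From mESC to mNPC, 4 entries were higher and 3 lower in chromatin (15.9% and 29.0% of all), 1 and 6 in nucleoplasm (12.8% and 35.8%), and 0 and 7 in cytoplasm (14.1% and 27.5%). The 7 entries lower in mNPC cytoplasm were Gm22973, Rnu12, Gm23143, Gm23287, Gm24525, Gm25313 and Rnu5g. With the common floor Rnu12, Gm23143 and Gm23287 remained called. From mNPC to mCtx, 8 were higher and 6 lower in chromatin (16.0% and 11.9%), 3 and 4 in nucleoplasm (23.5% and 10.3%), and 0 and 1 in cytoplasm (21.5% and 10.8%). The chromatin count of 14 became 9 with equal-valued entries counted once, and 8, 8 and 9 without mCtx chromatin replicate 2, mCtx chromatin replicate 3 or mCtx nucleoplasm replicate 3. The single cytoplasm entry was Gm23143, which had 26.99, 28.24 and 0 RPM in mNPC and 0 in mCtx, and the call was lost without mNPC cytoplasm replicate 1 or 2. The median difference of the snRNA entries from mESC to mNPC was 0 for chromatin, -2.33 for nucleoplasm and -2.45 for cytoplasm, and over all tested entries 0, -1.20 and 0. From mNPC to mCtx it was 3.42, 1.54 and 0, and 0 in each over all. The comparisons share groups and are not independent of each other.

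The direction of several of these counts depended on the scale. Centring each library to one median shifted libraries by between -3.06 and 3.18 on the log2 scale. The shift was -3.06 in all mNPC nucleoplasm and cytoplasm libraries, where the median tested entry was at 0 RPM. Within mESC cytoplasm it was 2.25, -3.06 and -3.06. Values of 0 were shifted too, so an entry at 0 throughout both groups took on a difference and could be called. Centring turned mESC chromatin against cytoplasm to 0 higher and 17 lower, and nucleoplasm against cytoplasm to 0 and 4. For chromatin against nucleoplasm the higher and lower calls of mESC were then 0 and 3, those of mNPC 3 and 1, and those of mCtx 1 and 0. Between cell types it gave 17 higher and 0 lower for mNPC against mESC chromatin, 11 and 0 for their nucleoplasm, 0 and 8 for mCtx against mNPC chromatin, and 0 and 9 for their nucleoplasm. Chromatin or nucleoplasm against cytoplasm of mNPC and mCtx still had 0 lower. The share of all tested entries called after centring is not given. These counts therefore cannot be read as particular to the snRNA entries. The ratio of Gm23287 to Gm23143 within a library is the same under either scale, but may depend on how reads were shared among copies.

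Whether the difference of chromatin from cytoplasm itself differed between cell types was tested as an interaction in limma. For mNPC against mESC the interaction was positive in 8 of 24 entries and negative in 0 (18.9% and 11.9% of all tested entries), and with the common floor in 7 and 3. For mCtx against mNPC it was positive in 2 and negative in 5 (6.11% and 11.2%), and in 7 and 6 both with the common floor and with 10 RPM added. The 8 were Gm22973, Gm23143, Gm23287, Rnu5g, Gm25313, Rnu11, Rnu12 and Gm24525. The common floor turned the sign for Gm22973 and Gm23287, whose mNPC cytoplasm libraries were all at 0. For Rnu12 and Gm24525 the difference was -6.42 in mESC and 0 in mNPC, where all chromatin and cytoplasm libraries were at 0, and neither passed with the common floor (limma adjusted p of 0.137 and 0.184).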

How the data were processed

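The 27 small RNA libraries came from 1 deposited table. Per the labels' protocols, ribosomal RNA was removed from the short RNA, libraries between 120 and 160 bp were cut from a gel, and sequencing was single-end with 100 bp. The values are RPM per the file headers, scaled by the authors. The aligner and the sharing of reads among copies is not given in the sources used here. Depth is unknown, so no counting intervals are given. Families were assigned by global alignment (Biopython 1.88). limma 3.58.1 in R 4.3.3 fitted 9 group means to log2(RPM + 1) of 851 entries (options trend and robust). It made 15 pairwise comparisons and 2 interactions, adjusted by the Benjamini-Hochberg method within each, and was tested on simulated data. Fractions were treated as unpaired. Values of single libraries are given for the 10 entries with the highest mean and those called in at least 2 pairwise comparisons, though not for every group. The entries and lists were chosen with earlier results of these data known. Alternatives were another added value, other filters, a common floor, centred libraries, a replicate block, single libraries left out and, chosen after seeing the data, equal-valued copies counted once. The U5 sequences are not reported here.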

Additional observations from a re-analysis of the deposited data

Results flagged for a closer look

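The difference between chromatin and cytoplasm was compared between cell types by an interaction in limma, and the entries below passed. Interaction values are on the log2(RPM + 1) scale, and for each of these entries at least 1 of the 4 groups was at 0 in a library, so the sizes depend on the added 1 RPM. Between mNPC and mESC, 8 of 24 entries passed with higher values and 0 with lower ones (18.9% and 11.9% of all entries). These were Gm25313 at 16.60 (limma adjusted p = 1.46e-05), Rnu5g at 14.99 (0.00039 by limma), Rnu11 at 8.56 (3.05e-05), Rnu12 and Gm24525 at 6.42 each (9.75e-12 and 1.35e-05), Gm23287 at 4.43 (9.75e-09), Gm23143 at 3.82 (0.049) and Gm22973 at 3.72 (2.38e-06). With the common floor the sign turned for Gm22973 and Gm23287, Rnu12 and Gm24525 no longer passed (limma adjusted p of 0.137 and 0.184), and the other 4 kept direction and call. Gm23143 was lost without mNPC cytoplasm replicate 3 (limma adjusted p = 0.135).

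Between mCtx and mNPC, 2 entries passed with higher and 5 with lower values (6.11% and 11.2% of all entries). Rnu12 at 7.26 and Gm22710 at 4.79 were higher (limma adjusted p of 1.93e-12 and 0.000769), and Gm22710 was lost with the common floor (limma adjusted p = 0.365). Rnu5g at -10.77, Gm25313 at -9.73, Gm23287 at -8.87, Rnu11 at -8.56 and Gm22973 at -7.14 were lower (limma adjusted p of 0.0122, 0.00559, 1.4e-13, 5.56e-05 and 7.04e-11), and each kept direction and call with the common floor. In all 5 the mCtx groups were at 0.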

How the results depend on the processing

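Over all 17 comparisons 102 calls of single entries held with each of the 27 libraries left out in turn, and 26 did not. Single calls were lost in 6 cases with 10 RPM added, 5 without a filter, 3 with the replicate block, 25 with the common floor and 57 with centred libraries. Centring shifted values of 0 with the rest. It turned Gm22973 (-0.82) in mESC chromatin against cytoplasm, Gm22973 (-1.21), Gm23143 (-0.66) and Gm23287 (-0.58) in mESC nucleoplasm against cytoplasm, Gm22973 (2.33) and Gm23287 (1.53) in mNPC against mESC chromatin, Gm23287 (1.69) in mNPC against mESC nucleoplasm, and Rnu12 (-3.50), Gm22710 (-0.40) and Gm24525 (-2.09) in mCtx against mNPC nucleoplasm. The common floor turned the interaction of mNPC against mESC for Gm22973 (-1.94) and Gm23287 (-1.48). The cause was not tested.

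For the alternative settings the share of all tested entries called is not given. Counts of called entries that moved by over 1.5 times were as follows. With centred libraries, chromatin against cytoplasm had 17 in mESC and 4 in mCtx, chromatin against nucleoplasm 4 in mNPC and 1 in mCtx, and nucleoplasm against cytoplasm 1 in mCtx. Across cell types centring gave 17 for mNPC against mESC chromatin, 11 for their nucleoplasm and 8 for mCtx against mNPC chromatin. In mESC chromatin against cytoplasm all 17 were lower, and in the mNPC against mESC chromatin and nucleoplasm comparisons all 17 and 11 were higher. With the common floor, chromatin against nucleoplasm of mESC had 7, nucleoplasm against cytoplasm 3 in mNPC and 3 in mCtx, mCtx against mNPC nucleoplasm 3, mNPC against mESC cytoplasm 3, and mCtx against mNPC cytoplasm 0. The interaction of mCtx against mNPC had 13 with the common floor and 13 with 10 RPM added. With at least 9 libraries above 1 RPM, mCtx chromatin had 6 against cytoplasm, 4 against nucleoplasm and 8 against mNPC, and with equal-valued copies counted once 7, 5 and 9.

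With single libraries left out, the counts ranged from 3 to 6 for mESC nucleoplasm against cytoplasm, 6 to 15, 3 to 6 and 4 to 14 for mCtx chromatin and nucleoplasm against cytoplasm and chromatin against nucleoplasm, 8 to 17 for mCtx against mNPC chromatin, 0 to 2 for their cytoplasm (2 without mCtx cytoplasm replicate 1 or 3), and 7 to 13 for the mCtx against mNPC interaction (13 without mCtx chromatin replicate 1). Same-numbered fractions of a cell type correlated in their deviations at -0.12 to 0.187, over 0.1 in 8 of 27 pairs, so the numbers were not taken as pairs. The replicate block kept 82 of 85 calls, and cell types could not be compared with it.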
